A study of Mus musculus with 2 samples.

Results

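The Socs family and Cish form the 8 classical genes for suppressors of cytokine signalling: Socs1 to Socs7, and Cish, which encodes the cytokine-inducible SH2 protein. They were chosen by symbol, and all 8 were found among the 55536 genes of the deposited tables. The data are RNA-seq of polyadenylated RNA from mouse bone marrow-derived macrophages, phagocytes of strain C57BL/6J grown from marrow. The cells received Lipid A at 100 ng/mL for 12 h, were kept without it for 12 h, and were then given a second dose of 100 ng/mL for the last 30 min. The 2 libraries, labelled as biological replicates, form 1 group. Libraries without treatment or with the first exposure alone were not analysed here, and no value below describes induction. The age of the mice was not given. Another label of the same samples calls the agent lipoprotein A, and this is not resolved by the labels. The replicates carry separate biosample records under the same donor record, so differences between them measure the spread of these 2 libraries, which may be technical. Assigned counts came to 41938419 in replicate 1 and 30780681 in replicate 2, and an rRNA entry took 1.37% and 4.25% of them.

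Cytokine receptors signal through Janus kinases (Jak), which phosphorylate receptors and Stat transcription factors. Socs proteins carry an SH2 domain that binds phosphotyrosine and a C-terminal SOCS box that recruits elongins B and C and the cullin Cul5 into a ubiquitin ligase. Socs1 and Socs3 also block Jak catalytic activity through a kinase inhibitory region. Cish, Socs1, Socs2 and Socs3 are known as genes that cytokines switch on to limit their own signal, whereas Socs4 to Socs7 have longer N-terminal parts and are less tied to cytokine exposure. In macrophages Socs3 is known for restraining signals through the gp130 receptor chain and Socs1 for restraining interferon signals. The annotated coding lengths follow this division, with 257 codons for Cish, 212 for Socs1, 198 for Socs2 and 225 for Socs3, against 436 for Socs4, 536 for Socs5, 533 for Socs6 and 579 for Socs7.

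Socs3 was the most abundant member and, by scaled counts and by the alignment-derived TPM, the one that differed most between the libraries. By FASTQ-derived TPM Cish differed more, 5.95-fold against 4.36-fold for Socs3. The level of Socs3 was 59.8 TPM (transcript level normalised to gene length and library size) in replicate 1 and 280 TPM in replicate 2. The other 7 members together stood at 54.8 TPM and 51.2 TPM. Socs3 therefore held 52.2% of the summed TPM of the 8 genes in replicate 1 and 84.5% in replicate 2. In bulk RNA, fewer cells that express a gene and less RNA per cell cannot be told apart. A level of at least 1 TPM in both libraries, called detected, was met by 6 of the 8 members, against 48.7% of protein-coding genes. Cish and Socs2 were the 2 that fell short.

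**Figure D1:**
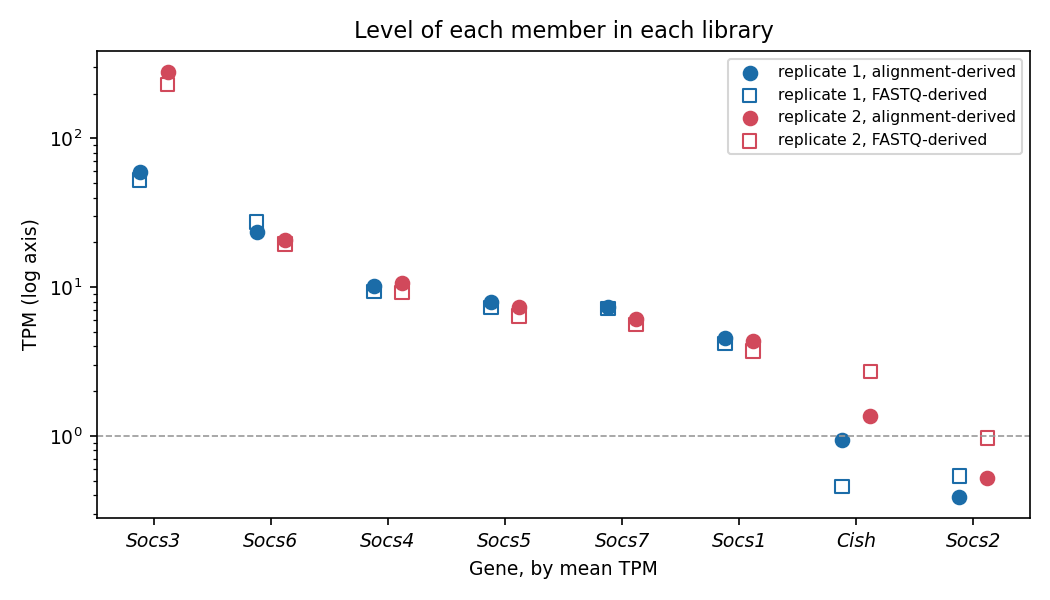
TPM on a log axis for each member in replicate 1 (blue) and replicate 2 (red), from the alignment-derived table (filled circles) and the FASTQ-derived table (open squares), with a dashed line at 1 TPM. Socs3 stands at 59.8 and 280 TPM, above every other member in both libraries.

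By mean level the order was Socs3, Socs6, Socs4, Socs5, Socs7, Socs1, Cish and Socs2. Of the 7 neighbouring pairs in this order 6 had library values that did not overlap. The exception was Socs5, at 7.89 and 7.32 TPM, and Socs7, at 7.38 and 6.14 TPM. In the FASTQ-derived table the order was the same, but Cish and Socs2 overlapped as well, so that 5 pairs stood apart. Among 22028 protein-coding genes Socs3 ranked 2229th in replicate 1 and 477th in replicate 2, while Socs6 ranked 4556th and 4691st.

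Socs3, an inhibitor of gp130 and Jak signalling (ENSMUSG00000053113.3, chromosome 11, 117966079 to 117970047, minus strand, mm10), had 3823 counts in replicate 1 and 13518 in replicate 2. Scaled to the library sizes these were 90.9 and 440.0 CPM (counts relative to library size, not to gene length), a 4.84-fold difference (exact 95% interval 4.67 to 5.02, for counting error only). The log2 ratio of 2.28 was exceeded by 16 of the 12471 genes with at least 20 counts in each library. The 2 libraries are replicates of the same condition, so this difference is itself the spread between replicates, and no test was run. All of its counts fell on the coding transcript Socs3-201 (2 exons, coding part 117967556 to 117968230 in a single exon). The noncoding transcripts Socs3-202 and Socs3-203 held 0 counts in both libraries and both tables. The deposited interval on TPM was 56.2 to 61.8 in replicate 1 and 263 to 275 in replicate 2, and the latter did not contain the deposited TPM of 280.

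Cish, whose protein competes for phosphotyrosines of cytokine receptors (ENSMUSG00000032578.7, chromosome 9, 107296026 to 107302784, plus strand), was the other member at least 2-fold higher in replicate 2. It had 31 and 77 counts, a 3.37-fold difference after scaling (2.22 to 5.34). Its deposited TPM differed less, at 0.94 and 1.35, which is 1.44-fold. The deposited effective length of the gene was 1179 in replicate 1 and 2669 in replicate 2, and TPM divides by that length. In replicate 1 the short transcript Cish-203 (411 bases) held 2.3 counts but 57.4% of the gene's TPM, and in replicate 2 it held 0. The main coding transcript Cish-201 alone stood at 0.40 and 1.26 TPM, a 3.15-fold difference, with 28.7 and 68.8 counts. The FASTQ-derived table gave Cish-201 as 0.361 and 0.98 TPM, a 2.71-fold difference. In that table the gene as a whole moved from 0.456 to 2.71 TPM, and there Cish-205 (371 bases, noncoding) held 60.3% of TPM in replicate 2 on 6.6 counts. The counts thus place Cish above 2-fold at a level near 1 TPM. The main transcript does so too, but it holds most of the same counts and is not separate evidence. The gene-level TPM ratio of Cish differs between the tables together with the shares of these short transcripts. The deposited interval on its TPM was 0.605 to 2.71 in replicate 1 and 1.32 to 4.6 in replicate 2, and the 2 overlap.

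The share of all genes past the same line shows how uncommon such ratios were in these libraries. Of the 12471 genes counted, 1.96% stood 2-fold or more above replicate 1 in replicate 2, and 0.521% stood 2-fold or more below it. Among the 7 members with at least 20 counts in each library, 2 passed the upper line, Socs3 and Cish, and 0 passed the lower. Their median log2 ratio was -0.02, equal to the median of -0.02 over all genes counted, and the other 5 lay within 0.3 of 0. The central 95% of all genes ran from -0.63 to 0.90 on the log2 scale. By scaled counts Cish and Socs3 lay above that range and the other 5 counted members inside it. Cish rests on 31 and 77 counts, whereas 10228 of the 12471 genes had at least 100 counts in each library. The range is thus set mostly by genes with more counts than Cish. By deposited TPM the log2 ratio of Cish was 0.52.

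**Figure D2:**
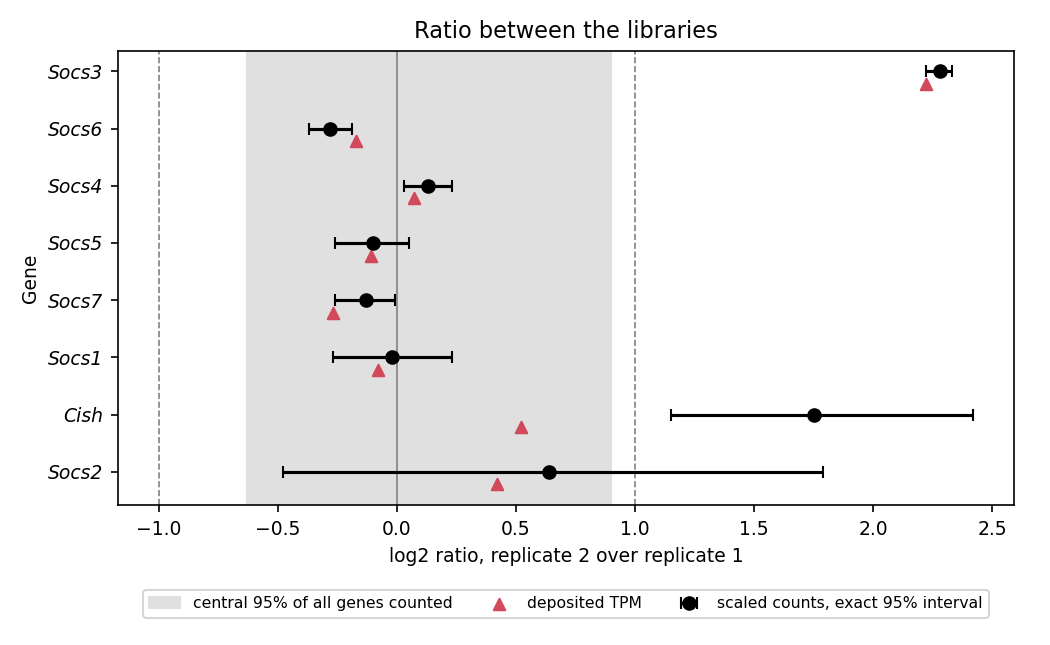
Log2 ratio of replicate 2 over replicate 1 for each member, from scaled counts with exact 95% counting intervals (black) and from deposited TPM (red triangles), with the central 95% of all genes counted in grey and dashed lines at 2-fold. Socs3 (2.28) and Cish (1.75) lie to the right of the 2-fold line by counts, and only Socs3 does by deposited TPM.

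The coding sequences of the 4 short members are shown here because they make plain how far apart these genes are at the base level, and hence how reads can be told apart. The lines give the last 120 coding bases before the stop codon, which encode the end of the protein where the SOCS box lies, read from the GENCODE M21 transcripts (GRCm38) in the direction of transcription. Capitals mark the 16 positions that are identical in all 4 when aligned from the last base without gaps. Socs3 is at chr11:117967556-117967675 (minus strand), Cish at chr9:107300778-107300897 (plus), Socs1 at chr16:10784236-10784355 (minus) and Socs2 at chr10:95412656-95412775 (minus).
Socs3: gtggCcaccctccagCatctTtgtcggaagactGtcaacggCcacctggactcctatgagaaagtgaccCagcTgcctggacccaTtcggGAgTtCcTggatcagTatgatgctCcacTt
Cish: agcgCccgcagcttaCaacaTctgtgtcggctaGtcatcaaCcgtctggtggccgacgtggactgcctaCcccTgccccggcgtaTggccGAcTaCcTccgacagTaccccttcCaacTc
Socs1: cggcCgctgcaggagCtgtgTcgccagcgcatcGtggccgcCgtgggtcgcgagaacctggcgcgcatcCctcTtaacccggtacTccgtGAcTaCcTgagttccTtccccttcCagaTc
Socs2: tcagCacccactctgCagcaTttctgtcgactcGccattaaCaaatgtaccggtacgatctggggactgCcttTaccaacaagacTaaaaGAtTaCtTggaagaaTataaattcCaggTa

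Identity over these bases was 44.2% between Cish and Socs3, 45.0% between Cish and Socs2, 42.5% between Cish and Socs1 and 31.7% between Socs1 and Socs3. No stretch of 31 bases in the transcripts of Socs3, Socs1 or Socs5 occurred in a transcript of any other gene. For Socs7 2 of 7232 such stretches were shared with other genes, for Socs4 36 of 6838, for Socs2 6.55%, for Socs6 7.38% and for Cish 10.41%. Between members, 4 stretches were shared, all between Socs2 and Socs6. Reads of Socs3 and Socs1 therefore had no annotated transcript of another gene to share a 31-base match with, while a part of Cish, Socs2 and Socs6 did. The 2 annotated genes that overlap Cish on the opposite strand, Gm17040 and Gm17041, held 0 counts in both libraries. No annotated gene overlapped Socs3 or Socs1.

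The sequence before the start is shown for Socs3, the most abundant member, and for Socs1, its closest counterpart in function, whose libraries were close. Windows from 250 bases before to 50 after the RefSeq start (GRCm38.p6) were found for 4 of the 8 members, Cish, Socs1, Socs3 and Socs4. Both strands were searched for 5 short patterns. These were the Stat-type palindrome TTCNNNGAA, the Irf-type core AANNGAAA, the kB-type letters GGGNNNTTC, the GC box GGGCGG and the TATA box TATAAA. The lines give the 250 bases before the RefSeq start, at chr11:117969367-117969616 (minus strand) for Socs3 and chr16:10785537-10785786 (minus strand) for Socs1, and for Cish only the 20 bases that hold its Stat-type letters, at chr9:107296659-107296678 (plus strand). Capitals mark the Stat-type letters in Socs3 and Cish and the Irf-type letters in Socs1.
Socs3: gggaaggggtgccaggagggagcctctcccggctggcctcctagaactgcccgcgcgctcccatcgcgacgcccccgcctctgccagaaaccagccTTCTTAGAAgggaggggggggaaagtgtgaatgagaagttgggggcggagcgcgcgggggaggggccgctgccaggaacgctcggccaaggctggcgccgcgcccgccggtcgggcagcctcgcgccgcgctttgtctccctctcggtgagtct
Socs1: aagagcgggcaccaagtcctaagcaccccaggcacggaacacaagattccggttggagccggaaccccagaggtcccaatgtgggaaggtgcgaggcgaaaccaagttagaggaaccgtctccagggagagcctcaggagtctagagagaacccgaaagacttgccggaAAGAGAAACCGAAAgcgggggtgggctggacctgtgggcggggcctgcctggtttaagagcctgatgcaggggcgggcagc
Cish: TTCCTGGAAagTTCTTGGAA

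The Stat-type palindrome occurred once in the Socs3 window, as TTCTTAGAA at -154 from the RefSeq start, and at 2 places in the Cish window, as TTCCTGGAA at 1 and TTCTTGGAA at 12. It was found in 8.3% of all 32851 windows and did not occur in those of Socs1 or Socs4. The Irf-type core occurred at 2 overlapping places in Socs1, as AAGAGAAA at -81 and AACCGAAA at -75, at 1 place in Cish and in 23.9% of all windows. The kB-type letters occurred at 1 place in Socs3 and in 14.0% of all windows. GC boxes occurred at 2 places each in Cish, Socs1 and Socs3 and at 1 in Socs4, against 35.7% of all windows with any, and no TATAAA was present in these 4, against 13.6%. The starts differ between annotations: Socs3-201 in GENCODE begins 180 bases downstream of the RefSeq start, Cish-201 begins 633 bases upstream of it, and Socs1-201 begins at the same base. The bases just before the GENCODE starts of Socs3-201 and Cish-201 are therefore outside the windows. The Stat-type letters of Cish lie downstream of the start of Cish-201. A match is a description of letters and not a site, a missing match says only that these letters are not in this window, and binding was not measured.

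Socs1, an inhibitor of Jak kinases and of interferon signalling (ENSMUSG00000038037.5, chromosome 16, 10782240 to 10785536, minus strand), stood at 4.56 and 4.31 TPM on 323 and 233 counts. The 2 libraries were close, with a log2 ratio of -0.02 (-0.27 to 0.23), so that the counting interval reaches up to 1.17-fold in replicate 2. Socs3 was thus 4.84-fold apart between the same libraries in which Socs1 was 0.988-fold apart, and the 2 counting intervals do not overlap. These intervals hold no spread between libraries, so the contrast describes these 2 libraries only. Both annotated transcripts, Socs1-201 and Socs1-202, begin at the same base and carry the same coding part of 636 bases. Socs1-202 held 22.7% of the gene's TPM in replicate 1 and 43.9% in replicate 2 in the FASTQ-derived table, and 11.4% and 26.5% in the alignment-derived table. Both tables gave Socs1-202 the larger share in replicate 2, but they disagreed on its size.

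Socs2, best known for limiting growth hormone signalling (ENSMUSG00000020027.18, chromosome 10, 95385362 to 95417180, minus strand), was the lowest member at 0.39 and 0.52 TPM. It rested on 14 and 16 counts and so did not enter the ratio counts. Its log2 ratio of 0.64 had an interval of -0.48 to 1.79, so that neither a decrease nor a 2-fold increase could be told from no difference at this depth. The deposited interval on its TPM, 0.875 to 2.90 in replicate 1 and 1.07 to 3.62 in replicate 2, did not contain the deposited TPM in either library. The 14 annotated transcripts of Socs2 had few counts each, and the main coding transcript Socs2-201 held 12.0 and 12.3 counts in the alignment-derived table.

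The 4 long members were moderate in level and close between the libraries. Socs6, which is linked to turnover of receptor tyrosine kinases such as Kit (ENSMUSG00000056153.15, chromosome 18, 88665224 to 88927481, minus strand), was the highest of them at 23.4 and 20.8 TPM on 2525 and 1518 counts. It was 0.823-fold as high in replicate 2 (0.772 to 0.878), the lowest ratio among the counted members. Most of its TPM was divided among 3 transcripts with the same coding part of 1599 bases. In the FASTQ-derived table Socs6-203 led with 38.7% and 49.0%, followed by Socs6-201 with 26.1% and 24.4% and Socs6-202 with 15.5% and 14.8%, while the short Socs6-208 (453 bases) held 16.6% on 35.9 counts and 7.5% on 8.5 counts. In the alignment-derived table Socs6-201 led in replicate 1, at 41.9%, and Socs6-203 in replicate 2, at 35.1% against 32.5% for Socs6-201. Both tables thus put Socs6-203 first in replicate 2 and differed on the leading transcript in replicate 1. The 3 annotated pseudogenes that overlap Socs6 held 0 counts.

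Socs4, which is linked to turnover of the epidermal growth factor receptor (ENSMUSG00000048379.9, chromosome 14, 47276931 to 47296102, plus strand), stood at 10.2 and 10.7 TPM on 1890 and 1507 counts, a ratio of 1.09-fold (1.02 to 1.17). Socs4-201 held all of its TPM. Socs5, linked to the same receptor and to interleukin-4 signalling (ENSMUSG00000037104.9, chromosome 17, 87107679 to 87137839, plus strand), stood at 7.89 and 7.32 TPM on 821 and 558 counts, a ratio of 0.931-fold (0.834 to 1.04). Its main transcript Socs5-201 held 80.1% and 75.6% of TPM, and Socs5-203, which carries 609 coding bases of the 1608, held 17.5% and 22.1% on 31.7 and 27.5 counts, with similar shares in the other table. Socs7, which binds signalling adaptors such as Nck1 (ENSMUSG00000038485.5, chromosome 11, 97362551 to 97398542, plus strand), stood at 7.38 and 6.14 TPM on 1278 and 852 counts, a ratio of 0.913-fold (0.836 to 0.996). Socs7-201 held 87.4% and 91.2% of its TPM. The ratios of all 4 long members thus lay inside the central 95% of all genes.

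**Figure D3:**
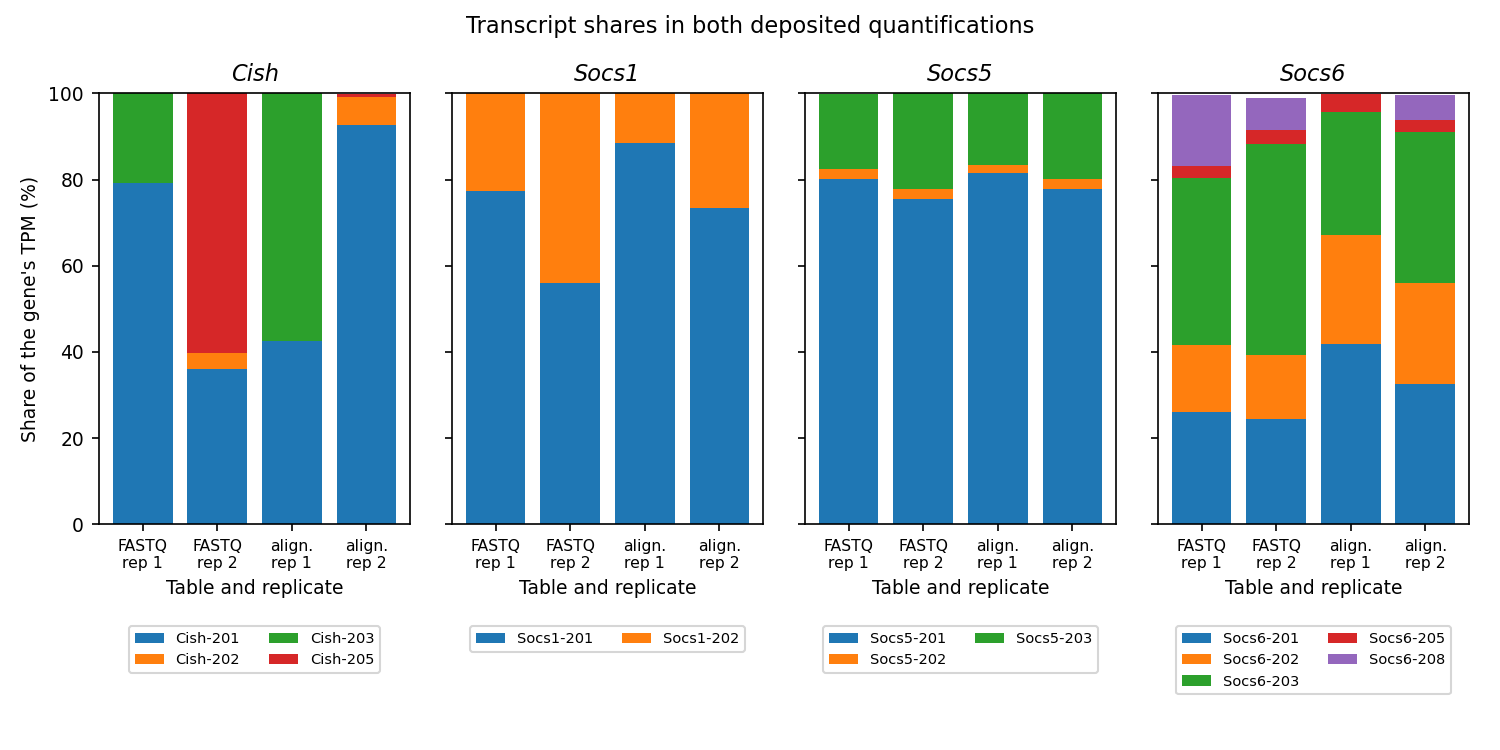
Share of the gene's TPM held by each transcript of Cish, Socs1, Socs5 and Socs6 (transcripts at 1% or more in any bar), for both replicates in the FASTQ-derived and the alignment-derived table. The leading Cish transcript changes between tables and replicates, Socs1-202 takes a larger share in replicate 2 in both tables, and Socs5 is divided alike in all 4 bars.

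The genes whose levels over both libraries were nearest to those of Socs3, by Euclidean distance in log2(TPM + 1) among protein-coding genes, were Il1b, the cytokine interleukin-1 beta, at 71.4 and 263 TPM (distance 0.27), Ppp1r15a, a regulator of translation under stress, at 63.4 and 349 TPM (distance 0.33), and Ier2, an immediate-early gene, at 68.2 and 196 TPM (distance 0.54). All 3 were higher in replicate 2, with log2 ratios of 1.91, 2.43 and 1.56. This direction was fixed by choosing genes with levels near those of Socs3 in both libraries. For Socs6 the nearest were Dnajb1, Wdr7 and Rcn2, all within 0.02 of it and with log2 ratios between -0.13 and -0.14. The measure rests on 2 libraries and says only that the levels were alike. Levels alike in both libraries also mean TPM ratios alike, so neither set of ratios is separate evidence.

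The partners through which Socs proteins act are given by list, and their counts at 2-fold stand beside 1.96% higher and 0.521% lower over all genes counted, so that 0 in lists of this size says little about them. Detection stands beside 48.7% of protein-coding genes. All 7 listed genes of the SOCS box ubiquitin ligase were detected, from Elob, elongin B, at 263 and 229 TPM to Cul5 at 12.0 and 11.9 TPM, with 0 of 7 at 2-fold in either direction and a median log2 ratio of -0.11. All 4 Janus kinases were detected, from Jak1 at 104 and 91.1 TPM to Jak3 at 17.3 and 13.3 TPM, with 0 of 4 at 2-fold and a median of -0.06. Of 7 Stat genes 6 were detected. The lowest was Stat4 at 0.71 and 1.12 TPM, and Stat3, the factor downstream of gp130, stood at 86.2 and 90.2 TPM. Among 24 cytokine receptor chains 21 were detected, from Il2rg, the common gamma chain, at 443 and 556 TPM to Lepr, the leptin receptor, at 0.02 and 0.01 TPM, and 0 of the 21 counted were at 2-fold. Epor, the erythropoietin receptor, was left out of that count by its 13 counts in replicate 2, against 91 in replicate 1, and its levels were 2.26 and 0.60 TPM (log2 ratio -2.31, -3.32 to -1.51). The gp130 chain Il6st, a target of Socs3, stood at 33.6 and 35.9 TPM, with log2 ratio 0.22 (0.17 to 0.27).

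Of the 9 pathway lists, cytokine ligands and Stat targets were those that held genes at 2-fold. Of 13 cytokine ligands 4 were detected, against 48.7% of protein-coding genes. Enough counts were present for 5, of which 2 were at least 2-fold higher in replicate 2, against 1.96% of all genes counted. These were Il6, which signals through gp130, at 0.89 and 8.34 TPM on 21 and 170 counts (log2 ratio 3.44, 2.81 to 4.20), and Il10, which signals through Stat3, at 48.7 and 98.2 TPM (1.05, 0.95 to 1.15). Il10 was also the highest of the list, and Ifna4 and Il13 were at 0 counts in both libraries. Among 15 Stat target genes, all detected, 13 were higher and 2 lower in replicate 2, and the median was 0.41 (log2) against -0.02 over all genes counted. Junb, a transcription factor of the AP-1 family, was the only one past 2-fold, at 205 and 398 TPM (1.01, 0.97 to 1.05). The kinase genes Pim1 (0.98, 0.93 to 1.03) and Pim3 (0.97, 0.74 to 1.21) stood just below the line, and all 3 intervals include it. The highest of this list was Cdkn1a, a cell cycle inhibitor, at 273 and 404 TPM, and the lowest was Myc at 3.07 and 4.16 TPM.

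**Figure D4:**
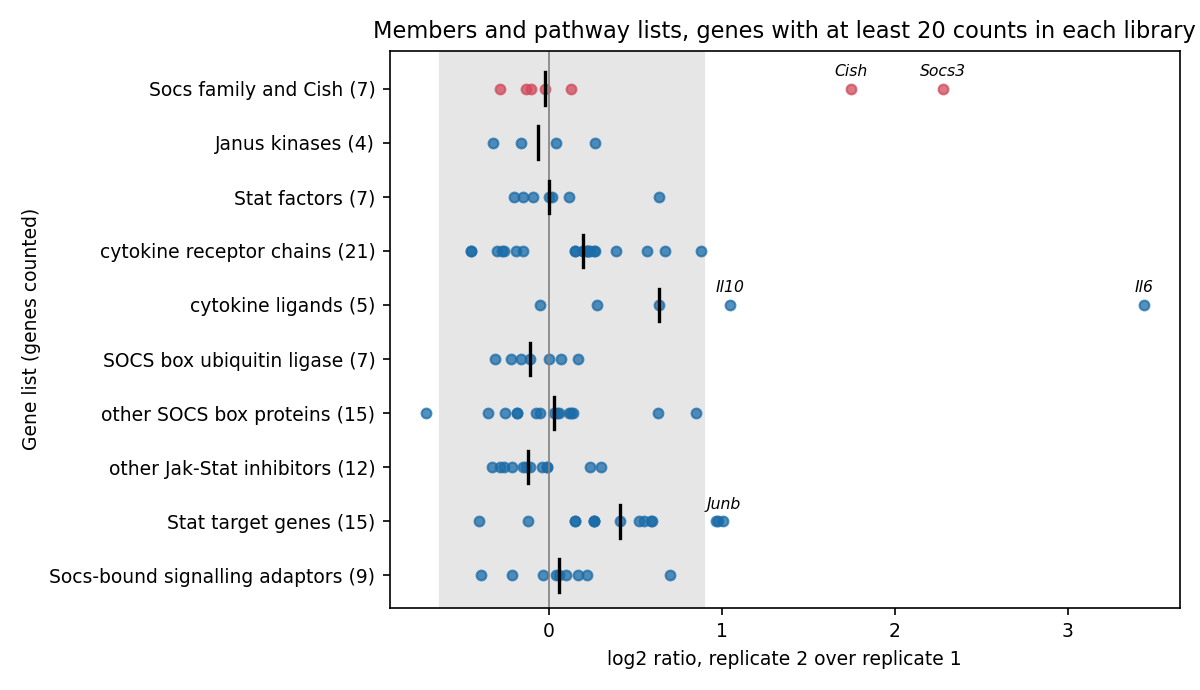
Log2 ratio of replicate 2 over replicate 1 for the 7 counted members (red) and for genes of 9 pathway lists (blue) with at least 20 counts in each library. Black bars are medians and the grey band is the central 95% of all genes, and the named genes at 2-fold or more are Cish, Socs3, Il6, Il10 and Junb.

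The remaining lists hold genes whose proteins share the SOCS box, inhibit the same pathway or bind Socs proteins. Their counts at 2-fold are to be read against the same 1.96% and 0.521%, and their detection against 48.7% of protein-coding genes. Of 26 other SOCS box genes 12 were detected and 15 had enough counts, with 0 at 2-fold and a median of 0.03, from Wsb2 at 76.8 and 74.4 TPM to 8 genes at 0 counts in both libraries, Asb9 among them. Of 12 other inhibitors of Jak and Stat signalling all were detected, from the phosphatase Ptpn6 at 431 and 375 TPM to Pias2 at 9.69 and 10.9 TPM. In replicate 2, 10 were lower and 2 higher, with 0 at 2-fold. Their median log2 ratio was -0.12, between the quartiles of -0.21 and 0.18 over all genes counted. Of 9 genes listed for signalling proteins that Socs proteins bind, 8 were detected with 0 at 2-fold. They ran from Grb2 at 784 and 721 TPM to Irs1 at 0.90 and 1.01 TPM.

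The libraries also differed in other ways. Replicate 2 had the lower depth and the larger rRNA share. For the cell type markers, detection stands beside 48.7% of protein-coding genes. Markers at 2-fold stand beside 1.96% higher and 0.521% lower over all genes counted. All 8 macrophage markers were detected, and of these 2 were higher and 6 lower in replicate 2 (median -0.25 on the log2 scale). Their summed level was 16500 and 18400 TPM, of which Lyz2 alone made up 8427 and 11649 TPM, and Cd14 was past 2-fold (log2 ratio 1.07, 1.03 to 1.11). The 8 neutrophil markers summed to 75.1 and 9.88 TPM, with 2 detected and Ly6g at 0 counts in both libraries. Only S100a9 of these had at least 20 counts in each library, at 277 and 26. It was more than 2-fold lower in replicate 2 (log2 ratio -2.93, -3.6 to -2.38). Below that count filter, S100a8 held 138 and 16 counts, Ngp 272 and 8, and Ltf 87 and 3. Of 6 T cell markers 1 was detected, Cd4, and they summed to 58.7 and 37.8 TPM. Of 6 B cell markers 2 were detected, with sums of 9.25 and 5.48 TPM. Of 6 dendritic cell markers 1 was detected, with sums of 3.34 and 3.22 TPM and Cd209a at 0. None of 5 NK cell markers (1.48 and 0.08 TPM) or 6 erythroid markers (0.08 and 0.03 TPM, 4 at 0 in both libraries) was detected. Of 5 mast cell markers 1 was detected, Hdc, with 3 at 0 and sums of 8.61 and 14.4 TPM. All 7 stromal markers were detected, with sums of 743 and 840 TPM. All 7 were higher in replicate 2, but by small amounts, with 0 at 2-fold. Their log2 ratios ran from 0.09 for Lum to 0.32 for Dcn, with a median of 0.27 against -0.02 over all genes counted. All 7 lay inside the central range of all genes given above, -0.63 to 0.9. Whether these differences had any part in the ratios of Socs3 and Cish was not tested.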

How the data were processed

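RNA-seq of polyadenylated RNA was measured in 2 libraries of 1 group. Per the deposited notes, reads were quantified on mm10 with GENCODE M21, but no tool is named there. The authors deposited alignment-derived gene and transcript tables with expected counts and TPM, and a FASTQ-derived transcript table with estimated counts and TPM. The authors also deposited bounds on TPM, a signal per gene, with no level stated for them in the file headers. Aligner, counter and strand setting: not given in the sources used here.

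Expected counts of the gene table were rounded. The 26248 entries with numeric names (0 counts) and 97 spike-in entries (0.0526% and 0.0667% of counts) stayed out. Ratios are replicate 2 over replicate 1 on counts scaled by TMM (edgeR 4.0.16, R 4.3.3) with 0.5 added, among genes with at least 20 counts in each library, with exact 95% binomial (Clopper-Pearson) intervals from scipy 1.17.1. The limit set by 0 reads was 3 counts, equal to 0.0715 CPM in replicate 1 and 0.0975 CPM in replicate 2. Reads are not independent molecules, so intervals cover counting error only. A 2-fold rule replaced a test, since there is 1 library on each side. It was run on simulated counts with an assumed spread, where the changes were larger than 2-fold and lay in genes with many counts. That run does not cover genes at low counts such as Cish, and it gives no error rate for these libraries. Alternatives were DESeq2 1.42.0 size factors, total counts, other filters, 5 counts added and the FASTQ-derived table.

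The members, the lists of pathway genes and cell type markers, and the rules were chosen with earlier results of these data known. Named genes were all members, the 3 genes nearest to each of the 2 highest members, and from each pathway list the highest, the lowest and those at 2-fold. A gene that this rule selects is not reported here. Stat3, Il6st, Epor, Pim1 and Pim3, Gm17040 and Gm17041, Il13, and the single markers were named after their values were seen. Promoter windows came from RefSeq GRCm38.p6. A comparison of protein sequences had been planned, and the last coding bases were compared in its place. Python 3.11.15, numpy 2.4.6, pandas 2.3.3 and matplotlib 3.10.9 were used.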

Additional observations from a re-analysis of the deposited data

How the results depend on the processing

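The number of members at least 2-fold higher in replicate 2 was 2 with TMM, DESeq2 size factors, total counts, no count filter and the FASTQ-derived counts. It was 1 with at least 100 counts required in each library, where Cish is no longer counted and Socs3 stays. The number at least 2-fold lower was 0 under each of these. Detected members numbered 6, and 7 without replicate 1, 6 without replicate 2, 6 in the FASTQ-derived table and 5 at 5 TPM. The log2 ratio of Socs3 ran from 2.22 to 2.28 over its alternatives, and that of Cish from 0.52 by deposited TPM to 1.84 by FASTQ-derived counts. Of 40 alternative values for the ratios of single members 37 lay within the counting interval of the reported one, and 0 changed the sign of a ratio at 2-fold. Members with 1 transcript at 90% or more of TPM in both libraries numbered 2, and 3 in the alignment-derived table. Of 24 alternative mean levels 5 differed from the reported one by more than the SD between the libraries, all in the FASTQ-derived table. There Socs2 was at 0.751 TPM against 0.455, Cish at 1.58 against 1.15, Socs1 at 3.95 against 4.43, Socs4 at 9.28 against 10.5 and Socs5 at 6.84 against 7.61. Depth limits Socs2 and Cish, with fewer than 100 counts in each library. No paired analysis was possible because there is a single group.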
